A study of Mus musculus with 4 samples.

Results

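Oxidative phosphorylation is the last stage of respiration in the inner mitochondrial membrane. Complexes I (NADH dehydrogenase) and II (succinate dehydrogenase) pass electrons to coenzyme Q, complex III (the cytochrome bc1 complex) passes them to cytochrome c, and complex IV (cytochrome c oxidase) passes them to oxygen. Complexes I, III and IV pump protons, and complex V (ATP synthase) uses the resulting gradient to make ATP. Most subunits are encoded in the nucleus and imported, while mitochondrial DNA encodes a few central ones. In skeletal muscle this machinery is dense in oxidative fibres, and quiescent muscle stem cells are known for a low mitochondrial content that grows on activation.

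The nuclear-encoded subunit genes of these 5 complexes were followed in muscle progenitor cells of C57Bl/6 mice. Members were taken by symbol from the array annotation: the Nduf a, b, c, s and v series for complex I, Sdha to Sdhd for complex II, symbols starting with Uqcr for complex III, Cox4 to Cox8 for complex IV and Atp5 for complex V. This gave 84 genes of the 19505 with a probe set, each with a single probe set: 37, 4, 8, 18 and 17 in complexes I to V. The pattern leaves out Ndufab1, Cyc1, the ATP synthase inhibitor Atpif1 and the mobile carrier Cycs, which were measured and are given with the other pathway genes.

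The series compared 2 arrays from aged mice (2 years old) with 2 from young mice (5 weeks old). Both ages were handled alike: muscle was digested with collagenase, a flow sort kept cells with both CD29, the beta 1 integrin, and ITGA7, the alpha 7 integrin, on their surface, and 1 ng of total RNA was amplified and labelled for a whole-transcript Affymetrix array. No treatment or genetic change was named in the labels, and neither the sex nor the number of animals behind an array is given in the sources used here. Nothing names separate animals behind the replicate arrays, so every p-value measures only the spread between these arrays.

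Levels are the deposited log2 values of a probe set, and differences are aged minus young in the same log2 units. The values reached 19.4, a wider scale than RMA usually gives, so no fold changes are stated. Probe sets differ in sensitivity, so each gene is compared with itself across arrays and never with another gene. Nuclear subunit genes have many processed pseudogenes and some near-identical paralogs (Atp5g1 to Atp5g3, Ndufb4 and Ndufb4b), and the signal of such copies could not be told apart here.

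Array quality and markers of other cell types differed between the arrays. The area under the curve that separates the array's positive from its negative control probe sets was 0.792 and 0.819 (aged) against 0.849 and 0.823 (young). Satellite cell markers were above the median negative control in every array (14 of 14), with a median difference of -0.08. Their differences ran from -1.16 (Myod1) to 0.90 (Chrdl2). Both aged arrays lay below both young ones for 4 (18.4% of all probe sets) and above for 2 (18.2%). Young replicate 1 was the highest array for 7 of the 14 (29.0% of all probe sets), and young replicate 2 the lowest for 8 (23.0%). Granulocyte, macrophage and T and NK cell markers had positive differences (medians of 3.93, 0.64 and 1.19). Of 10 macrophage markers 6, and of 9 T and NK cell markers 4, lay below the median negative control in all 4 arrays. Fibroblast, tendon, endothelial and Schwann cell markers had negative ones (-1.15, -0.53, -1.36 and -0.56). The endothelial median reached 10.61 in young replicate 2 against 6.38 to 7.11 in the other arrays. No endothelial marker had ages apart, beside 36.6% of all probe sets. Schwann cell markers lay at a median of 0.12 and -0.41 (aged) against 0.37 and -0.19 (young) from each gene's 4-array mean. Pericyte and smooth muscle, erythroid, cardiac and adipocyte markers differed by medians of 0.20, 0.09, 0.00 and -0.02. The B and plasma cell median was 0.05, but Jchain, the joining chain of secreted antibodies, differed by 6.24 and Cd79a, a B cell receptor chain, by 1.21 (both singled out after their values were seen). Jchain in both young arrays and Cd79a in young replicate 2 lay below the median negative control. Of the 6 B and plasma cell markers, 4 lay below it in all 4 arrays. The part of array quality and of these other cells in the differences of the subunit genes was not tested. In these bulk samples, fewer cells of a type and less RNA per cell cannot be told apart.

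No subunit gene passed the test between aged and young cells. The median difference over the 84 members was -0.13, beside 0.00 over all 19572 tested probe sets, and the standard error of a typical member was 0.32. No member passed in limma after Benjamini-Hochberg adjustment over all tested probe sets (smallest adjusted p of 0.646). The background for that count is 0% of tested probe sets. At an unadjusted p under 0.05 there was 1 member (1.19%), Ndufs1, lower in aged cells, while 7.35% of all tested probe sets reached that level, 3.36% higher and 3.99% lower in aged cells. A member with the typical error had to differ by 0.78 to reach it.

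Small negative differences were the more common sign. Of the 84 members 56 (66.7%) were lower in aged cells, against 50.2% of all probe sets, and 49 of the 84 were after a second quantile normalization. Both aged arrays lay below both young arrays for 25 members (29.8%, against 18.4% of all probe sets) and above them for 10 (11.9%, against 18.2%). The members are not independent of each other, since many shared the same high array: 40 of the 84 had their highest level in young replicate 1, a share of 47.6% beside 29.0% of all probe sets. Without young replicate 1 the median difference was -0.06 and 49 members were lower. Without aged replicate 1 it was -0.04, with 50 lower.

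Intervals were narrower for part of the list. With 2 arrays per age and no separate animals known, they set no bound on a difference between mice of these ages. Their width did not come from a gene's own replicates alone. Uqcrh, with replicate SDs of 0.005 (aged) and 0.015 (young), still had a standard error of 0.28. The 1 unit used below belongs to the deposited scale and stands for no fold change. The unadjusted 95% interval of the difference lay within 1 log2 unit of 0 for 37 members (44.0%, against 30.5% of all probe sets), and for the other 47 the interval reaches past 1 unit in at least 1 direction. For 66 members the larger gap between replicates of an age exceeded the difference between the ages, a share near that of all probe sets (14911 of 19572). Levels of 79 members were above the median negative control in all 4 arrays; Ndufa4l2 and Cox7b2 were below it in all 4, and Ndufs1, Sdha and Cox8c were below it in 1.

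**Figure D1:**
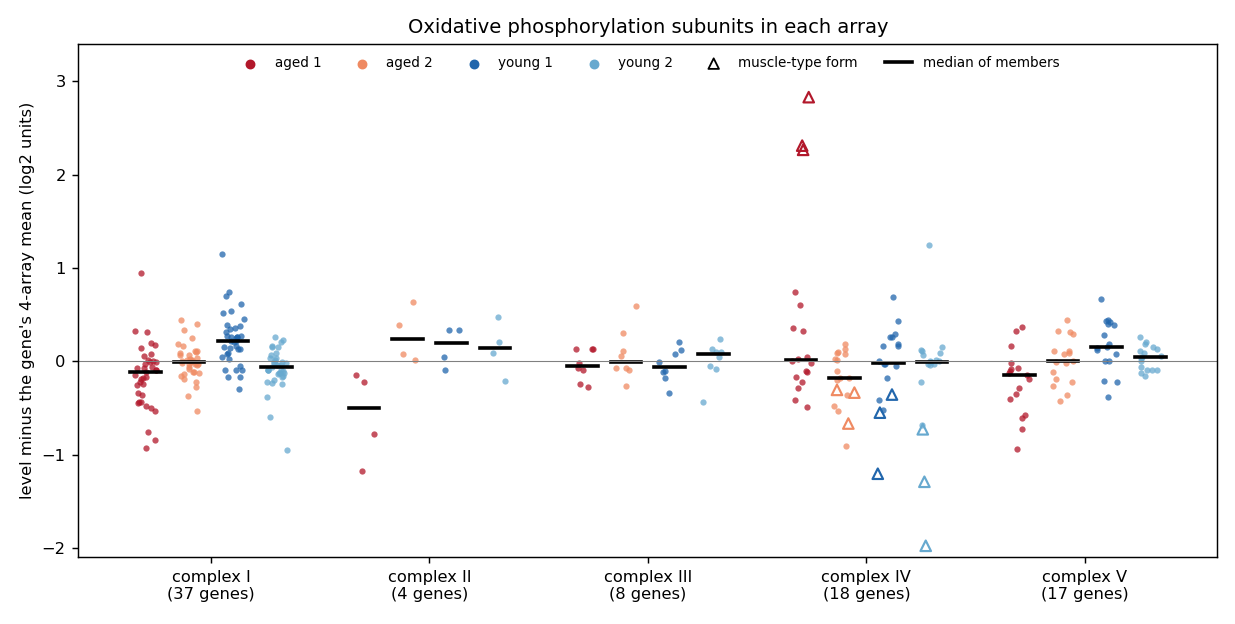
Each point is a subunit gene in an array, drawn as its log2 level minus that gene's mean over the 4 arrays and grouped by complex; colours mark the arrays, black bars the median of the complex and open triangles the 3 muscle-type forms. Complex I sat highest in young replicate 1 (median 0.22) and complex II lowest in aged replicate 1 (median -0.50), while the muscle-type forms stood at 2.27 to 2.83 in aged replicate 1.

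Complex I, the entry point for electrons from NADH, had 37 members with a median difference of -0.15, and 25 were lower in aged cells. Its highest array was young replicate 1 for 24 members, and without that array the median was 0.04. The measured core subunits, which hold the redox centres and the quinone site, numbered 6 with a median of -0.35; the 29 accessory subunits had a median of -0.15.

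Ndufs1, the largest iron-sulfur subunit of the NADH-oxidising arm, had the most negative difference of all members. It was read at 6.52 and 6.99 (aged) against 8.51 and 7.43 (young). The ages did not overlap, but young replicate 1 stood well above young replicate 2. The difference was -1.22 ± 0.45 (SE), with a limma adjusted p of 0.646, and it was -0.68 when young replicate 1 was left out and -1.76 when young replicate 2 was. The reading in aged replicate 1 lay below the median negative control of that array (6.76), so the size is uncertain.

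Other core subunits pointed both ways. Ndufv1, which binds the flavin that accepts electrons from NADH, was read at 11.62 and 12.12 (aged) against 12.54 and 12.31 (young), a difference of -0.56 ± 0.32 (SE). Ndufs8, an iron-sulfur subunit of the quinone arm, stood at 10.83 and 11.65 against 12.04 and 11.81, a difference of -0.69 ± 0.38 (SE). For both genes the ages did not overlap, and aged replicate 1 was the lowest array. Ndufs3, a core subunit of the quinone arm, was higher in both aged arrays, at 15.32 and 15.30 against 15.02 and 15.09, a difference of 0.25 ± 0.28 (SE). Ndufs7, at the quinone site, was read at 7.16 and 7.78 (aged) against 7.43 and 7.15 (young). Ndufv2 ranged more between the young arrays (13.83 and 12.48) than between the ages (-0.15). In limma their adjusted p ran from 0.763 to 0.972.

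Among accessory subunits, Ndufb4b, a paralog of Ndufb4, had the most negative difference, with 12.28 and 12.62 (aged) against 13.47 and 12.73 (young). That is -0.65 ± 0.37 (SE), and -0.28 without young replicate 1. Ndufa9, an accessory subunit at the junction of the arms, was low in aged replicate 1 alone (13.13, against 14.50, 14.57 and 14.01). Ndufa4, named with complex I but found in complex IV, was read at 13.80 and 13.87 (aged) against 14.04 and 14.11 (young). Its hypoxia-induced paralog Ndufa4l2 was at 5.69 and 4.21 against 5.28 and 3.79, all below the negative control median. Each replicate gap for Ndufa4l2 (1.49 in either age) exceeded its difference of 0.41.

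Complex II, which links the tricarboxylic acid cycle to the chain, had negative differences for all 4 subunits, with a median of -0.26. None of the 4 had ages that stood apart, beside 36.6% of all probe sets, and aged replicate 1 was the lowest array for 3 of them. Sdha, the flavoprotein that oxidises succinate, was read at 6.66 and 8.47 (aged) against 8.18 and 8.05 (young). Its difference of -0.55 ± 0.60 (SE) came from aged replicate 1, a reading below the negative control median, and was 0.36 without it. The iron-sulfur subunit Sdhb was at 12.73 and 12.89 against 13.21 and 12.67. The membrane anchor Sdhd stood at 8.58 and 9.74 against 9.26 and 9.83, and the other anchor, Sdhc, at 7.96 and 8.27 against 8.24 and 8.28. Without aged replicate 1 the complex's median was 0.10, so no direction is stated for it.

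Complex III, which hands electrons from coenzyme Q to cytochrome c, had differences from -0.19 to 0.32 over its 8 members and a median of 0.05. For 6 of the 8 the 95% interval stayed within 1 log2 unit of 0. Uqcrc1, a core protein, was read at 11.90 and 12.25 (aged) against 12.02 and 12.37 (young). The other core protein, Uqcrc2, was at 8.19 and 8.58 against 7.93 and 8.37. Both core proteins overlapped between the ages. Uqcrfs1, the Rieske iron-sulfur protein that hands electrons on to cytochrome c1, was at 9.55 and 10.41 against 9.94 and 9.39, a difference of 0.32 ± 0.41 (SE). Uqcrh, the hinge protein, was the 1 member of the 8 with ages apart, beside 36.6% of all probe sets. It was at 17.12 and 17.11 against 17.29 and 17.31. Its difference of -0.19 ± 0.28 (SE) had a limma adjusted p of 0.929. Uqcr11, a small accessory subunit, stood at 13.04 and 12.65 against 13.12 and 12.83.

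Complex V, the ATP synthase, had a median difference of -0.24, and 15 of its 17 members were lower in aged cells. For 9 of them aged replicate 1 was the lowest array, for 8 young replicate 1 was the highest, and leaving out the former array gave a median of -0.0047, and leaving out the latter gave -0.09. The 5 subunits of the catalytic head and central stalk had a median of -0.27. Atp5a1 and Atp5b encode the alpha and beta chains, which carry the catalytic sites. Atp5b was read at 16.73 and 17.25 in aged and at 17.28 in both young arrays. Atp5a1 was at 15.59 and 16.64 against 16.50 and 16.52. In both genes the low value was that of aged replicate 1, and the differences were -0.29 ± 0.32 and -0.39 ± 0.42 (SE).

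The peripheral stalk holds the head still, and small membrane subunits belong to the part of the enzyme in the membrane. All 4 peripheral stalk genes had negative differences, from -0.61 (Atp5o) to -0.01 (Atp5h), with a median of -0.35. Atp5o, the OSCP subunit that holds the head in place, was at 12.02 and 12.62 (aged) against 13.05 and 12.81 (young), a difference of -0.61 ± 0.34 (SE) with ages apart. Atp5pb, the long b subunit of that stalk, was low in aged replicate 1 (10.13) and otherwise at 11.51, 11.50 and 11.12. The 5 small membrane subunits had a median of -0.33, and 4 of them were highest in young replicate 1. Atp5mpl stood at 14.50 and 14.15 against 15.24 and 14.42, and Atp5j2, the f subunit, at 14.09 and 14.05 against 14.67 and 14.15. For Atp5j2 the ages did not overlap, but aged replicate 1 and young replicate 2 lay close together.

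The c ring is encoded by 3 genes with the same mature protein. Atp5g1 was the positive one, at 12.69 and 12.30 (aged) against 11.94 and 12.37 (young) (0.34 ± 0.33, SE). Atp5g2 and Atp5g3 differed by -0.19 ± 0.32 and -0.24 ± 0.31 (SE). For all 3 the ages overlapped, while 36.6% of all probe sets had ages apart. The limma adjusted p of the complex V members was 0.770 to 0.996.

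Complex IV, the oxidase, has general subunits and tissue-restricted forms that can take their place. Its 10 general subunits, present in most tissues, had a median difference of -0.12. Cox4i1, the general form of the subunit that carries regulation by ATP, was read at 15.93 and 16.16 (aged) against 16.00 and 16.03 (young), a difference of 0.03 ± 0.29 (SE) that was -0.0043 under median centring. Cox5a stood at 14.51 and 14.29 against 13.78 and 14.19, with ages apart and a difference of 0.42 ± 0.31 (SE). Both intervals include 0.

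The 3 muscle-type subunits were the members with the largest positive differences. Cox6a2, Cox7a1 and Cox8b replace Cox6a1, Cox7a2 and Cox8a in the oxidase of heart and striated muscle, and are also known from brown fat. Cox6a2 was read at 9.86 and 7.26 (aged) against 6.39 and 6.86 (young). Its young readings lay near the negative control medians of those arrays (6.25 and 6.62), so the size of its difference is uncertain. Cox7a1 was at 13.45 and 10.47 against 10.78 and 9.85, and Cox8b at 12.61 and 9.48 against 9.23 and 7.81. In every case aged replicate 1 was far above the other 3 arrays, and the other aged array was within 1 unit of a young one.

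The differences of the muscle-type forms rested on aged replicate 1. Cox8b differed by 2.53 ± 1.05 (SE), Cox6a2 by 1.93 ± 0.83 and Cox7a1 by 1.65 ± 0.96, with limma adjusted p of 0.691, 0.696 and 0.780. Without aged replicate 1 they were 0.96, 0.63 and 0.16, and without aged replicate 2 they were 4.09, 3.23 and 3.13. The group mean of Cox8b was 11.05 ± 2.22 in aged and 8.52 ± 1.01 in young arrays (SD, n = 2). The general forms did not share this pattern. Cox6a1 was at 14.99 and 15.50 against 15.70 and 15.42, Cox7a2 at 15.85 and 15.84 against 16.27 and 16.11, and Cox8a at 13.48 and 14.05 against 14.23 and 14.12. These differences were -0.32 ± 0.33, -0.35 ± 0.29 and -0.41 ± 0.33 (SE), opposite in sign to those of the muscle-type forms.

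The muscle-type form was set against its general form within each array. Only the change of this difference between arrays has a meaning, because the genes are read by different probes. For subunit 8 (Cox8b minus Cox8a) it was -0.87 and -4.57 (aged) against -4.99 and -6.31 (young). For subunit 6A it was -5.13 and -8.24 against -9.31 and -8.55, and for subunit 7A it was -2.40 and -5.37 against -5.49 and -6.26. The ages did not overlap for any of the 3 pairs, and aged minus young was 2.93, 2.25 and 1.99. An exact two-sided permutation test over the 4 arrays gave p = 0.333 for each pair (0.333 after adjustment over the 3), which is the smallest p this design allows. Without aged replicate 1 these values were 1.08, 0.69 and 0.51.

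**Figure D2:**
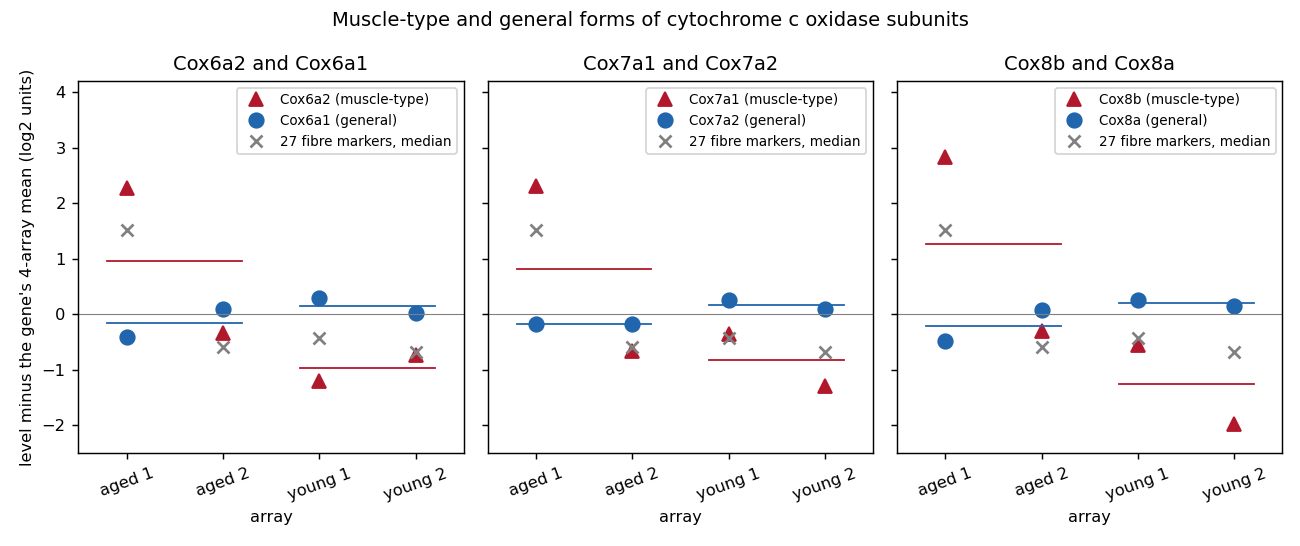
Each panel shows a muscle-type form (triangles) and its general form (circles) as the log2 level minus the gene's own 4-array mean, in the 4 arrays, with lines at the group means; crosses give the median of 27 mature fibre markers. The muscle-type forms and the fibre markers (1.52) stood high in aged replicate 1, while the general forms there were between -0.49 and -0.17.

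Markers of mature muscle fibres moved with the muscle-type forms. All 27 measured fibre markers were higher in aged cells, with a median of 1.12, and 4 reached an unadjusted p under 0.05, beside 3.36% of all probe sets in that direction. The median fibre marker was at 12.67 in aged replicate 1, 9.48 in aged replicate 2, and 9.47 and 9.05 in the young arrays, so that aged replicate 1 stood apart here as well. Without aged replicate 1, 16 of 27 were higher and the median was 0.06. Tnni1, the slow troponin I, was at 9.76 and 8.61 against 7.59 and 7.29, and Mybpc1, a slow myosin binding protein, at 13.24 and 11.998 against 11.12 and 11.13. Myl3 and Myl2, slow myosin light chains singled out after their values were seen, differed by 4.40 and 4.16, and by 1.47 and 2.07 without aged replicate 1. Myl2 was at 5.79 in young replicate 2, below the negative control median of that array (6.62). The 4 markers at an unadjusted p under 0.05 were the slow forms Tnni1, Mybpc1, Myl2 and Myl3. Differences varied within slow and within fast forms, by genes also picked with their values known. Slow Myh7 and Tnnt1 differed by 0.07 and 0.50. Fast Tnnt3 and Tnnc2 differed by 2.66 and 2.17, and fast Myh1 and Pvalb by 0.49 and 0.77. In aged replicate 2, Tnnt3 and Tnnc2 lay above both young arrays, and Myh1 and Pvalb lay below both. A difference between slow and fast forms as classes was not tested. One marker (Myh7) lay below the negative control median in every array, and 24 lay above it in all. The part of fibre RNA in the muscle-type result was not tested.

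Markers of the other tissues that use these forms gave mixed levels. Of 8 cardiac markers 6, and of 9 adipocyte markers 5, lay below the negative control median in all 4 arrays, as did 8029 of the 19572 tested probe sets. Ucp1, the uncoupling protein that defines brown fat, was read at 3.70 and 3.61 (aged) against 4.10 and 3.85 (young). Myh6, the atrial and cardiac myosin, was at 5.99 and 5.51 against 5.83 and 5.73. The adipocyte markers Fabp4, Pparg and Dio2 and the cardiac marker Tnnt2, singled out after their values were seen, were above that median in all 4 arrays. Fabp4, a fatty acid binding protein also known from endothelial cells, was at 15.04 and 14.49 against 15.29 and 15.97, and Tnnt2, the cardiac troponin T, at 8.02 and 8.95 against 7.66 and 9.41. Pparg, the adipocyte nuclear receptor, was at 7.81 and 8.54 against 9.22 and 8.24, and Dio2, a thyroid hormone deiodinase, at 7.83 and 8.08 against 7.88 and 6.85. The part of these tissues in the muscle-type result was not tested.

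The start regions of the isoform genes are shown because the pairs, which encode interchangeable subunits, went opposite ways in aged replicate 1. Each line gives the 250 bases before the annotated start from RefSeq (GRCm38.p6), read 5′ to 3′ on the gene's strand. Capitals mark matches, on either strand, to any of 8 short motifs: the NRF1 core GCATGCGC, the GABP (ETS) site CCGGAAG, the ERR element AAGGTCA, YY1 AAGATGGC, the E-box CAGCTG bound by myogenic factors, the TATA box TATAAA, the CCAAT box CCAAT and the GC box GGGCGG.
Cox8b, chr7:140900447-140900696, minus strand: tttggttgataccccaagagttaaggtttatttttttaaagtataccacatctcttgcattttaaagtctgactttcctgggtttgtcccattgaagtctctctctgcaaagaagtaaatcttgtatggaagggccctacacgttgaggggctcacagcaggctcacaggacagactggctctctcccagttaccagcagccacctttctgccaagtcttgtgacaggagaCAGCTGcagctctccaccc
Cox8a, chr19:7217617-7217866, minus strand: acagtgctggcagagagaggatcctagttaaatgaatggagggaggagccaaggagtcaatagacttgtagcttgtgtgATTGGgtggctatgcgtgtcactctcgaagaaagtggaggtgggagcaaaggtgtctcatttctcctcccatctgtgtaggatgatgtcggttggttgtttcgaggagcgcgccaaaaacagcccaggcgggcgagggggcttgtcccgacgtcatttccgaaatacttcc
Cox7a1, chr7:30183921-30184170, plus strand: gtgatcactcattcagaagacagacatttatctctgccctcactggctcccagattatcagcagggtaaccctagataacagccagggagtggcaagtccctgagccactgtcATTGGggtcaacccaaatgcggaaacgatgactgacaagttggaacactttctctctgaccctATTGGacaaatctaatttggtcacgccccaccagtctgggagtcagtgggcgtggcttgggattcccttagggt
Cox7a2, chr9:79759854-79760103, minus strand: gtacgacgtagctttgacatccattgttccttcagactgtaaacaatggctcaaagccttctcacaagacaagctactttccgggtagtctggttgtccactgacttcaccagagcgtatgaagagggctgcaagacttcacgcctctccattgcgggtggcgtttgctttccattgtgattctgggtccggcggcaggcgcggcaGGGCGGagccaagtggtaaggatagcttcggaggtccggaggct
Cox6a1, chr5:115348959-115349208, minus strand: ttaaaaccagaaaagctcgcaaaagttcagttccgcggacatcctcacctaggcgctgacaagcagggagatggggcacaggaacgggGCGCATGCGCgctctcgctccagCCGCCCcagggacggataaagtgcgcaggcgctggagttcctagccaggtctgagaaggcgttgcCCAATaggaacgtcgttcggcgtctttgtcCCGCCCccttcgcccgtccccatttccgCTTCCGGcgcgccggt
Cox6a2 had no entry. The Cox8b region held 1 match, an E-box, while Cox8a held a CCAAT box, Cox7a1 held 2 CCAAT boxes and Cox7a2 a GC box. The Cox6a1 region held the NRF1 core on both strands of a single palindrome, the GABP site, a CCAAT box and 2 GC boxes. GC content was 47.2% and 51.2% in Cox8b and Cox7a1, and 52.8%, 54.8% and 62.8% in Cox8a, Cox7a2 and Cox6a1. A match is a description of the letters and no evidence of binding.

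Across the members, 69 of 84 had an entry, and a gene with several starts was counted if any of them matched. The NRF1 core, named for a factor known to drive respiratory genes, was in 8 of the 69 (11.6%) against 2.56% of all 27025 genes with an entry. The GABP site was in 12 (17.4%) against 7.83%, and the ERR element in 5 (7.25%) against 4.70%. The E-box was in 6 (8.70%) against 14.7%, the TATA box in 7 (10.1%) against 14.3%, YY1 in 1 (1.45%) against 1.83%, the CCAAT box in 30 (43.5%) against 37.5% and the GC box in 25 (36.2%) against 35.4%. None of the 8 motifs contains another. These shares are given without a test.

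Other tissue-restricted forms, and Cox7a2l, gave mixed values. Cox6b2, a testis form of subunit 6B, was at 9.24 and 8.61 (aged) against 9.47 and 10.77 (young), a difference of -1.20 ± 0.51 (SE) with a limma adjusted p of 0.694. The high value was that of young replicate 2, and the difference was -0.55 without it. Cox8c, a testis form of subunit 8, stood at 7.57 and 6.85 against 6.32 and 6.61, near the negative control medians of 6.76, 6.68, 6.25 and 6.62. Cox4i2, known from lung and as an oxygen-sensitive form, was at 8.96 and 7.998 against 8.79 and 7.67. Cox7b2, a testis form of subunit 7B, was below the negative control median throughout, at 6.35, 5.52, 6.15 and 5.95. Cox7a2l, listed as a supercomplex factor and not as a tissue form, was lower in both aged arrays, at 12.77 and 12.46 against 13.67 and 13.05. Its difference was -0.75 ± 0.35 (SE), with a limma adjusted p of 0.710, and -0.44 without young replicate 1.

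**Figure D3:**
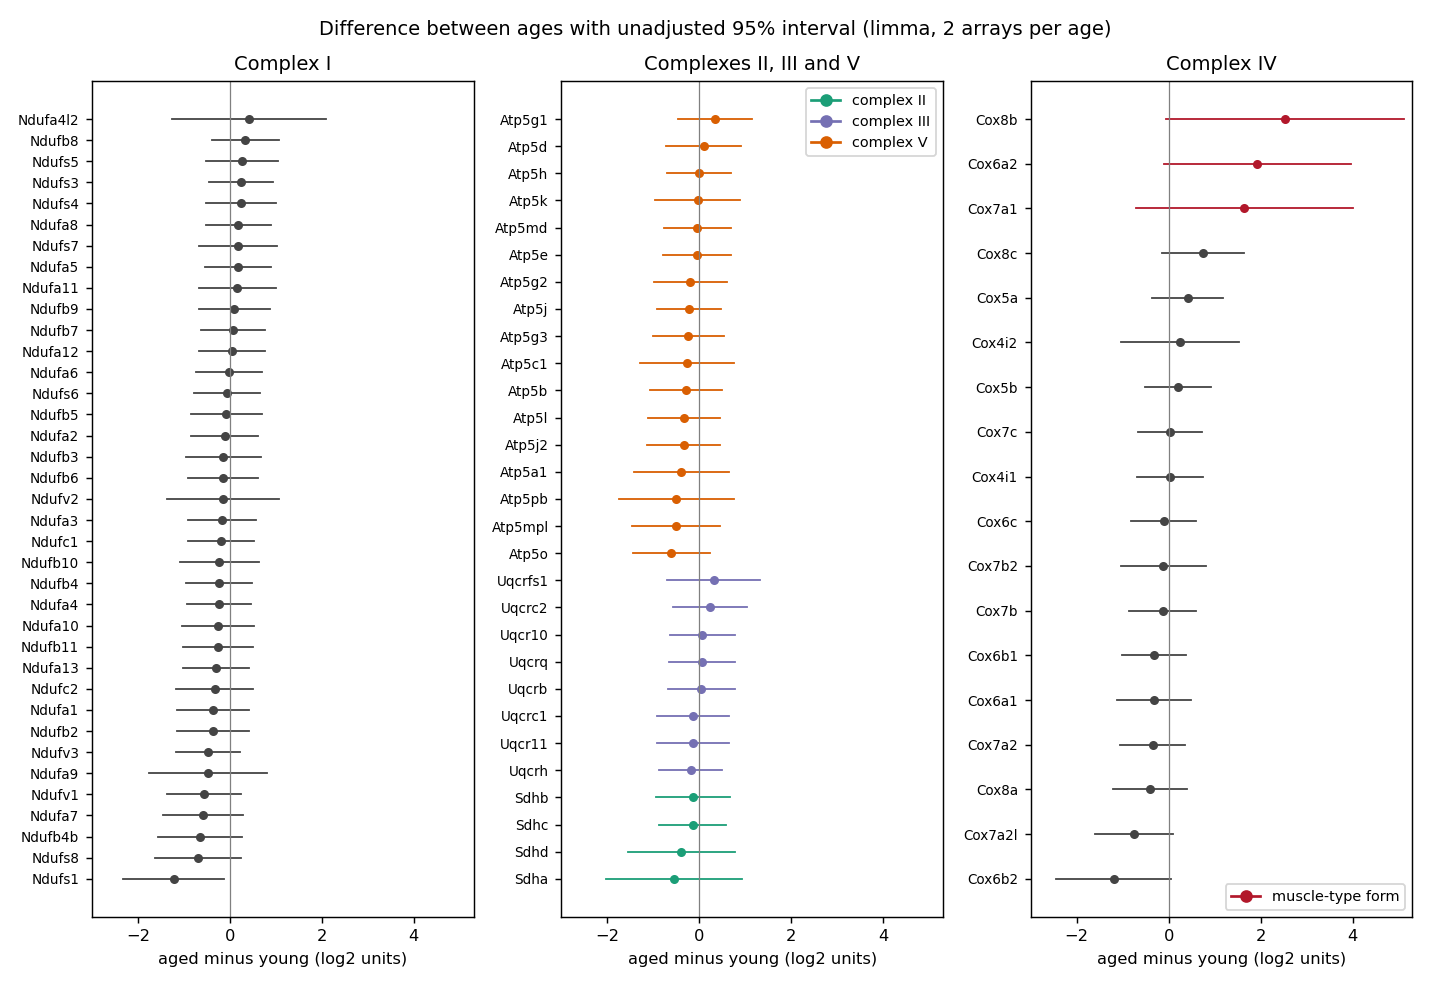
Points give the difference aged minus young of each subunit gene in log2 units and lines its unadjusted 95% interval from limma, with 2 arrays per age. Ndufs1 is the 1 member whose interval (-2.32 to -0.12) excludes 0, and the muscle-type forms have the widest intervals, with Cox8b from -0.06 to 5.11.

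Aged replicate 1 correlated least with the other arrays over the subunit genes. Across the 84 members, Pearson's r of the levels was 0.967 between the aged arrays and 0.955 to 0.958 between aged replicate 1 and the young arrays. It was 0.989 between the young arrays and 0.990 to 0.991 between aged replicate 2 and either of them. These correlations describe genes that share probe sensitivities and are not replicates. They include Cox6a2, Cox7a1 and Cox8b, whose aged arrays lay 2.60, 2.98 and 3.14 apart, and were not computed without these genes. Aged replicate 1 had the lowest level for 30 members (35.7%, against 24.3% of all probe sets) and the highest for 19 (22.6%, against 28.4%). Without the tissue-restricted forms, Cox7a2l, Ndufa4 and Ndufa4l2, aged replicate 1 was lowest for 29 of 74 members (39.2%). Young replicate 1 was highest for 39 of those 74 (52.7%, against 29.0% of all probe sets). The control separation of aged replicate 1 was also the lowest of the 4 (0.792), and the part of that in these values was not tested. Without aged replicate 1 there were 0 members at an unadjusted p under 0.05, beside 5.33% of all probe sets. Without aged replicate 2 there were 8, beside 7.22% of all probe sets: Cox6a2, Cox7a1, Cox8b and Cox8c higher, and Sdha, Ndufa9, Atp5pb and Ndufs8 lower. Ndufa9 and Atp5pb were singled out after their values were seen.

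Genes that build and supply the complexes are given by their lists. No gene of these lists passed in limma over all probe sets. Assembly factors of complex I differed by a median of 0.10 (17 genes, none at an unadjusted p under 0.05, beside 7.35% of all probe sets). Acad9, a complex I assembly factor, was at 8.71 and 8.64 against 8.15 and 7.93, and Ndufaf6 differed by 0.42 ± 0.32 (SE). Those of complex II had a median of 0.01 (4 genes) with Sdhaf1, needed for the iron-sulfur subunit, lower at 7.47 and 7.07 against 8.11 and 8.05 (-0.81 ± 0.31, SE; limma adjusted p of 0.654). Those of complex III had a median of 0.16 (6 genes), with Uqcc1 and Uqcc2, which act on cytochrome b, at -0.73 ± 0.33 and -0.55 ± 0.29 (SE). Those of complex IV had a median of -0.06 (20 genes). Coa7 was the 1 such gene at an unadjusted p under 0.05 (1.07 ± 0.36, SE), a level that 3.36% of all probe sets reached in that direction. All 4 of its readings lay below the negative control median. Cox14 differed by -0.60 ± 0.35 (SE). Those of complex V had a median of -0.01 (4 genes). Atpaf1, a chaperone of the beta chain, was at 11.13 and 9.79 against 7.93 and 10.87, and its difference was -0.41 without young replicate 1. Tmem242 was at -0.75 ± 0.43 (SE).

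Subunits that the symbol pattern leaves out, with cytochrome c, had small negative values. Ndufab1, Cyc1, Atpif1 and Cycs differed by -0.11, -0.24, -0.34 and -0.12. Their ages overlapped, while 36.6% of all probe sets had ages apart. Tricarboxylic acid cycle enzymes had a median of -0.27, and 10 of 13 were lower. Idh3g, a regulatory chain of isocitrate dehydrogenase, was at 12.63 and 12.65 (aged) against 13.34 and 13.44 (young) (-0.74 ± 0.28, SE; limma adjusted p of 0.654). It was the 1 gene of that list at an unadjusted p under 0.05, a level that 3.99% of all probe sets reached in that direction. Suclg1, a succinyl-CoA ligase chain, was at 8.40 and 9.79 against 10.74 and 9.95.

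Among the pathway lists, the smallest adjusted p was that of a regulator of mitochondrial biogenesis. Ppargc1a, the coactivator PGC-1 alpha that promotes mitochondrial gene expression, was read at 11.91 and 11.40 (aged) against 10.002 and 10.23 (young). Both aged arrays were more than 1 unit above both young ones. The difference was 1.54 ± 0.33 (SE), with a limma adjusted p of 0.465, and it was 1.28 without aged replicate 1, 1.79 without aged replicate 2, and 1.42 or 1.65 when a young array was left out. Perm1, a muscle regulator that acts with it, was at 7.86 and 6.08 against 4.56 and 5.55, above the negative control median in aged replicate 1 alone. Gabpb1, a subunit of the GABP factor singled out after its values were seen, was at 9.18 and 9.30 against 8.50 and 8.48. The list's median over 18 genes was 0.14, with 3 genes higher at an unadjusted p under 0.05 and none lower, beside 3.36% and 3.99% of all probe sets. Gabpb1 no longer reached that level without dim probe sets or with a trended prior.

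Coenzyme Q genes had a median of 0.28 over 12 genes, and 3 were higher at an unadjusted p under 0.05, a level that 3.36% of all probe sets reached in that direction. Coq10a, a coenzyme Q binding protein, was at 10.81 and 10.08 (aged) against 8.24 and 9.38 (young) (1.64 ± 0.49, SE; limma adjusted p of 0.558). Coq5, a methyltransferase of the pathway, was at 9.60 and 9.58 against 8.90 and 8.76, and it no longer reached that level without dim probe sets or with a trended prior. Coq8a, singled out after its values were seen, was at 10.04 and 9.53 against 7.22 and 9.15. Its difference of 1.60 was 0.64 without young replicate 1. Carriers, porins and uncoupling proteins had a median of 0.01 over 11 genes, none at an unadjusted p under 0.05, beside 7.35% of all probe sets. Ckmt2, the mitochondrial creatine kinase of striated muscle, was at 8.54 and 5.89 against 6.20 and 4.53, high in aged replicate 1 like the muscle-type oxidase subunits. Only that reading of Ckmt2 lay above the negative control median of its array. Slc25a31, a germ cell nucleotide carrier, stood at 3.66 and 4.28 against 4.49 and 4.78, below the negative control median in every array.

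**Figure D4:**
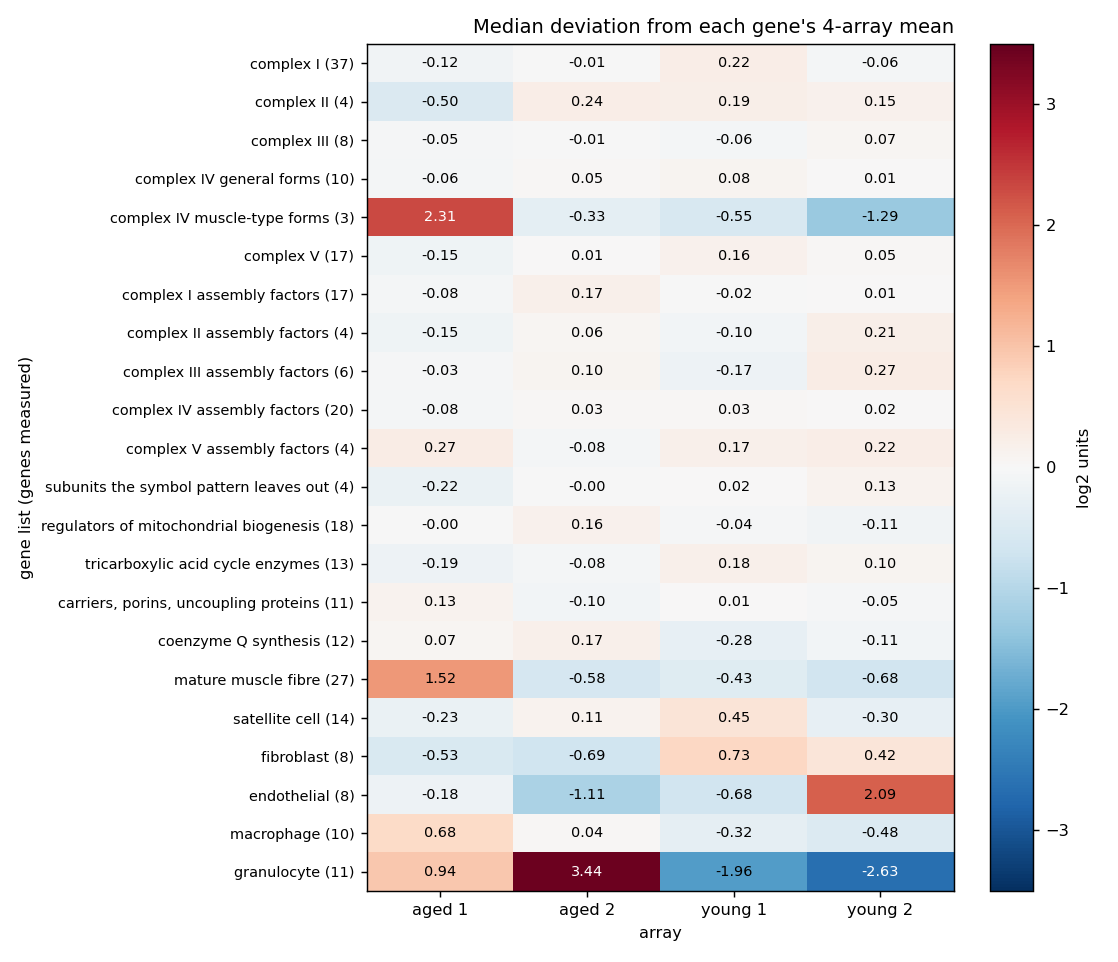
Each cell gives, for a gene list and an array, the median over its genes of the log2 level minus the gene's own 4-array mean; the number of genes measured is in parentheses. Subunit, assembly and supply lists stayed within 0.50 of 0 in every array, whereas muscle-type subunits (2.31) and fibre markers (1.52) were high in aged replicate 1.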

How the data were processed

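The values are log2 levels per probe set, which the authors deposited as 1 table after RMA and the Transcriptome Analysis Console, per the submitters' processing notes, with no versions given; RMA corrects background, normalizes between arrays and summarises probes, and these steps could not be redone here. The deposited columns were matched to arrays by accession, and 0 other columns were present. Gene symbols came from the annotation of the platform (19572 with a symbol; 6640 controls and 2634 unnamed entries were left out).

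A two-sided test of age used lmFit and eBayes of limma 3.58.1 (R 4.3.3) with the group alone and no filter on low levels. Its p-values were adjusted (Benjamini-Hochberg) across every tested probe set, with a threshold of 0.05, and the fit was checked on simulated data. For a gene with several probe sets the highest mean was used. Isoform pairs were compared by an exact permutation test over arrays. The members and the 24 gene lists were chosen with earlier results of these data known. Genes were named by role, by the smallest p in each complex or list, or by the largest difference, and small classes were completed after their values were seen. The number of arrays limits the precision. Alternatives were other centring and normalization, a trended or robust prior, averaged probe sets, a filter on dim probe sets, every table entry, the replicate number as a block, and leaving out each array.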

Additional observations from a re-analysis of the deposited data

How the results depend on the processing

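With 2 arrays per age, an unadjusted p carries little weight, and signal near the negative controls limits Ndufs1, Sdha, Cox6a2, Cox8c, Cox7b2 and Ndufa4l2. These checks covered 66 of the named subunit, pathway and fibre genes. Markers of other cell types and some further named genes were not among them. Of the 66, 49 kept their sign when each array was left out in turn, and 17 did not. None of the 66 passed the adjusted threshold under any alternative run.

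The count of probe sets past the adjusted threshold was 0, and 2 (Mpo and Elane, no subunit genes) with the replicate block. The count of members at an unadjusted p under 0.05 was 1 as reported, 2 with median centring, 3 with a trended prior, 4 with the replicate block and 0 with every entry of the table. Same-numbered arrays share only a number (their deviations correlated at r = -0.05), and with the replicate block Cox8b, Cox6a2 and Cox7a1 joined Ndufs1, with adjusted p of 0.513, 0.677 and 0.634. At that unadjusted level the block also added Ckmt2 and lost Coq5, Idh3g, Sdhaf1 and Gabpb1 among the other genes covered by these checks. Coq5, Idh3g, Sdhaf1 and Gabpb1 also lost it without dim probe sets. The complex III median was 0.12 after a second quantile normalization. Cox4i1 was -0.0043 with median centring. The cause of these shifts was not tested.

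Leaving out each array gave 0 to 1 probe sets past the adjusted threshold (Kit, without young replicate 2), 0 to 8 members at an unadjusted p under 0.05 and 1044 to 2037 probe sets at that level. Medians ran from -0.31 to 0.0378 for complex I and from -0.63 to 0.10 for complex II. They ran from -0.0002 to 0.0455 for complex III, from -0.14 to 0.0017 for complex IV and from -0.32 to -0.0047 for complex V. All but that of complex V crossed 0, and the checked genes whose ranges did so follow. Ranges that crossed 0 were -0.31 to 0.81 for Cox4i2, -0.53 to 0.30 for Cox7b2, -0.33 to 1.16 for Ndufa4l2, -0.92 to 0.13 for Atp5a1, -0.0877 to 0.15 for Cox4i1, -0.30 to 0.047 for Uqcrc1, -1.45 to 0.36 for Sdha, -0.40 to 0.14 for Sdhb, -0.12 to 0.75 for Uqcrfs1, -0.29 to 0.0123 for Sdhc, -0.97 to 0.20 for Sdhd, -0.33 to 0.0625 for Uqcr11, -0.41 to 2.53 for Atpaf1, -0.12 to 0.49 for Ndufs7, -0.82 to 0.53 for Ndufv2, -1.16 to 0.21 for Ndufa9 and -1.18 to 0.20 for Atp5pb.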
